A study of Mus musculus with 24 samples.

Results

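The complement genes described here are 33 genes of the complement system and its regulators, taken by symbol from the 49568 genes that each of the deposited tables lists. All 33 were found in both tables. Of these, 30 passed the filter on low values in freshly sorted liver populations (homeostasis) and 31 passed it in a transwell culture experiment. Masp2, Cfd and C3ar1 did not pass in the first experiment, and Cfd and C3ar1 did not pass in the second. The homeostasis samples came from 3 littermate mice of 12 weeks, the males A and E and the female F, on a C57BL/6 background. All were heterozygous for B6.129S4-Pdgfratm11(EGFP)Sor/J, a knock-in that puts a nuclear H2B-GFP reporter at Pdgfra, so every population came from animals with this allele. From each mouse 4 populations without CD11b, CD45 and CD31 were sorted. They were EpCAM+ ductal cells (DC), PDGFRα+SCA1- mesenchyme, PDGFRα+SCA1+ periportal mesenchyme and PDGFRα-SCA1+ stromal cells. The transwell samples came from wild type C57BL/6 mice of 8 to 12 weeks, with 2 samples in each of 6 groups. DC and SCA1+ mesenchymal cells (SCA1+Msc, sorted on SCA1 without a PDGFRα gate) were taken at day 0 and after culture to day 15. DC formed organoids either in expansion medium (EM), which holds growth factors, or in mesenchymal medium (MM) above SCA1+Msc cells that a porous membrane kept apart. The SCA1+Msc cells were first expanded for 7 days in MM and were then kept alone or below the DC. Because the EM organoids and the co-cultured organoids differed in medium as well as in company, an effect of the medium and one of the SCA1+Msc cells cannot be told apart.

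Complement is a cascade of plasma proteins that tags and lyses targets, and the liver is its main source in the body. The classical route starts with C1q and the proteases C1r and C1s, and the lectin route with mannose-binding lectins or ficolins and the MASP proteases. Both cut C4 and C2 to make an enzyme that cleaves C3, factor B gives the alternative route its C3-cleaving enzyme, and C5 to C9 build the lytic pore. Inhibitors in plasma and on membranes hold the cascade back, and the cleaved peptides C3a and C5a act through their own receptors. Hepatocytes make most of the soluble components, so hepatocyte RNA carried into a sorted fraction can add to the level of many of these genes.

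Values in the homeostasis experiment are the deposited per-length values, and those in the transwell experiment are TPM, the usual per-length share of a library. The deposited values differ from TPM by a factor of 0.722 to 1.39 that depends on gene and sample. The libraries held, in units of 1e6 assigned reads, between 19.6 and 25.6 in homeostasis and between 19.3 and 28.0 in the transwell experiment. Epcam was at 2966 to 3091 in homeostasis DC, and Pdgfra at 52.9 to 103 in the PDGFRα+ populations and under 0.1 in the others. The PDGFRα-SCA1+ cells, which the labels call mesenchymal, held little of the fibroblast and stellate genes (summed level of 8 genes 256 to 459, against 23693 to 46660 in the PDGFRα+ populations). The summed level of 7 endothelial genes was 3490 to 4750 in PDGFRα-SCA1+ cells and at most 48.6 in the other homeostasis libraries, although CD31+ cells had been gated out. The summed level of 12 hepatocyte genes was 27378 to 32861 in SCA1+Msc day 0, against 5282 to 6824 in DC day 0, 6754 to 7711 in homeostasis DC and 1127 to 3178 in PDGFRα+SCA1+ cells. None of the 12 genes was at 0 in all libraries of any freshly sorted group. Mouse E had the highest Alb in both SCA1+ populations, with 1111 against 122 and 118 in PDGFRα+SCA1+ cells and 4758 against 1779 and 1508 in PDGFRα-SCA1+ cells. In these bulk libraries fewer cells of a type and less RNA per cell cannot be told apart. Libraries were made with Smart-seq2, which keeps no strand, so reads on overlapping genes cannot be assigned to one of them.

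**Figure D1:**
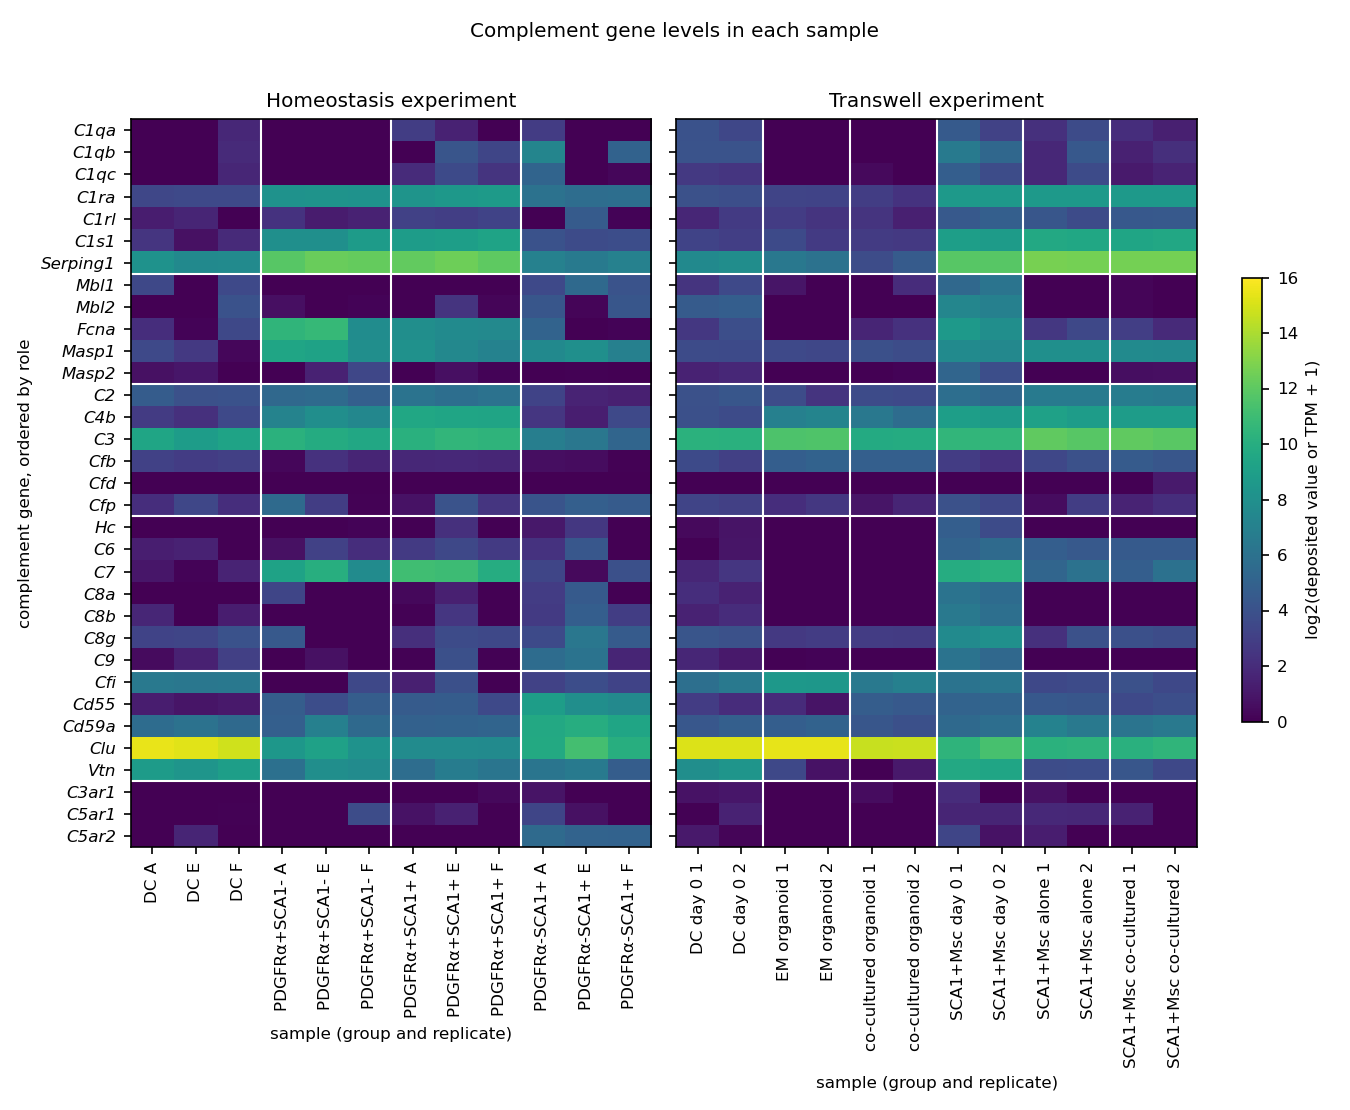
Level of each of the 33 complement genes (rows, ordered by role) in every library (columns, group and replicate) of the homeostasis and transwell experiments, as log2 of the value plus 1 (colour scale). C3, Serping1, C1ra, C1s1 and C4b are high in every PDGFRα+ and SCA1+Msc library, Clu is high in every ductal library, and C8a, C8b, C9 and Hc reach their highest levels in SCA1+Msc day 0.

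In homeostasis the PDGFRα+ mesenchyme carried the initiating proteases of the classical pathway, their inhibitor and C4. C1ra (chromosome 6, 124512405 to 124523443, GRCm38), which encodes the protease that C1q activates, was at 283, 299 and 285 in PDGFRα+SCA1- cells (values are in the order A, E, F throughout) and at 312, 364 and 428 in PDGFRα+SCA1+ cells. It was at 65, 51 and 55.2 in PDGFRα-SCA1+ cells and at 9.54, 10.7 and 10.4 in DC, and of these 4 groups none overlapped with another. The gap between the PDGFRα+ populations, 299 to 312, is smaller than the factor by which these values can differ from TPM. C1s1, the next protease, was at 452, 501 and 620 in PDGFRα+SCA1+ cells, at 245, 253 and 447 in PDGFRα+SCA1- cells, at 15.4, 11.8 and 12.6 in PDGFRα-SCA1+ cells and at 4.5, 0.663 and 2.79 in DC. The PDGFRα+ populations lay far above the other populations and came close to overlapping with each other. In limma with Benjamini-Hochberg adjustment over all genes tested, PDGFRα+SCA1+ cells exceeded DC by 7.32 ± 0.41 (log2 fold change of the value plus 1, ± SE) for C1s1 (adjusted p = 1.63e-07) and by 5.03 ± 0.22 for C1ra (adjusted p = 3.04e-08). Both genes have near-identical neighbours, C1rb and C1s2. C1rb was listed at 18.1, 11.8 and 0.26 and C1s2 at 24.5, 24.7 and 0.23 in the PDGFRα+SCA1+ libraries, so the split of reads within these pairs is uncertain.

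Serping1 (chromosome 2, 84765387 to 84775444) encodes C1 inhibitor, which inactivates C1r, C1s and the MASPs. It was at 4540, 5636 and 4217 in PDGFRα+SCA1+ cells and at 3635, 5310 and 4863 in PDGFRα+SCA1- cells. The other populations held far less, with 280, 191 and 198 in DC and 128, 94.8 and 128 in PDGFRα-SCA1+ cells. On this per-length scale it was the highest of the 33 members in both PDGFRα+ populations, above C3 and C7. PDGFRα+SCA1+ cells exceeded DC by 4.43 ± 0.23 on the log2 scale (limma, adjusted p = 6.63e-08). The recognition subunits showed another pattern: C1qa was listed at 0 to 6.59 and C1qc at 0 to 35 over the 12 libraries, and C1qb was at 156, 0 and 32 in the PDGFRα-SCA1+ libraries and at most 17.5 elsewhere. Clec4f and Cd5l, Kupffer cell genes, were at 30.2, 0 and 7.99 and at 38.6, 0 and 32 in the same PDGFRα-SCA1+ libraries. The summed level of the 10 macrophage genes was 189 to 270 there, 55.9 to 118 in DC, 61.6 to 199 in PDGFRα+SCA1+ cells and 21.6 to 110 in PDGFRα+SCA1- cells, with Marco and Timd4 at 0 in all PDGFRα-SCA1+ libraries. The part of macrophage RNA in C1q was not tested. No C1q gene passed the test in any of the 5 homeostasis comparisons. C1rl, a C1r-like protease gene, stayed under 10 outside PDGFRα-SCA1+ cells of mouse E, where it was 22.7.

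Of the lectin pathway, Fcna was highest in PDGFRα+ mesenchyme in homeostasis, while Masp1 was shared with PDGFRα-SCA1+ cells. The mannose-binding lectins were low or at 0 in the PDGFRα+ libraries. Fcna encodes ficolin A, a recognition molecule, and was at 1386, 1700 and 216 in PDGFRα+SCA1- cells, at 237, 202 and 185 in PDGFRα+SCA1+ cells, at 33.3, 0 and 0.124 in PDGFRα-SCA1+ cells and at 3.19, 0.136 and 10.3 in DC. Masp1, the protease that partners these lectins, was at 683, 604 and 235 in PDGFRα+SCA1- cells and at 273, 178 and 137 in PDGFRα+SCA1+ cells. It was also at 193, 252 and 126 in PDGFRα-SCA1+ cells, against 10.4, 5.33 and 0.203 in DC. For both genes the PDGFRα+SCA1- library of mouse F was low. The summed level of 8 fibroblast and stellate genes was 23693 in that library and 45611 and 46660 in those of the other mice. Against DC, PDGFRα+SCA1- cells were higher by 7.73 ± 1.27 for Fcna (limma, adjusted p = 0.000644) and by 6.70 ± 0.70 for Masp1 (adjusted p = 1.91e-05). Mbl1 was listed at 0 in all 6 PDGFRα+ libraries and was at 10.4, 44.2 and 16.2 in PDGFRα-SCA1+ cells and 9.84, 0 and 10.3 in DC. Mbl2 was at 18.1, 0.139 and 18.2 in PDGFRα-SCA1+ cells and under 5 elsewhere apart from the DC library of mouse F, at 15.7. Masp2 was under 10 in every homeostasis library.

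Among the genes of the C3-cleaving enzymes, C4b was the most sharply mesenchymal and C3 was shared with the ducts. C4b, which encodes the C4 precursor, was at 736, 682 and 639 in PDGFRα+SCA1+ cells and at 140, 234 and 167 in PDGFRα+SCA1- cells. It was at 5.86, 3.73 and 10.4 in DC and at 4.68, 1.5 and 10.4 in PDGFRα-SCA1+ cells. C3, the protein at which all routes meet, was at 1144, 1448 and 1354 in PDGFRα+SCA1+ cells, 1182, 924 and 779 in PDGFRα+SCA1- cells, 690, 464 and 628 in DC and 111, 80.9 and 36.6 in PDGFRα-SCA1+ cells. Thus every DC library held more C3 than any PDGFRα-SCA1+ library, and every PDGFRα+ library more than any DC library. Of the DC level of C3, up to 16.05% would go with the hepatocyte genes, by the ratios described below. PDGFRα-SCA1+ cells were lower than DC by 3.06 ± 0.35 (the log2 fold change was -3.06, limma adjusted p = 3.93e-05). PDGFRα+SCA1+ cells exceeded DC by only 1.16 ± 0.35 (adjusted p = 0.0285), a call that was lost under 9 alternatives, among them without both SCA1+ libraries of mouse E, with adjusted p up to 0.118. C2, whose product joins C4 in the C3-cleaving enzyme, was at 68.6, 53.4 and 63.1 in PDGFRα+SCA1+ cells, 40.8, 45.9 and 27.3 in PDGFRα+SCA1- cells, 23.8, 14.7 and 15.3 in DC and 8.29, 1.98 and 1.6 in PDGFRα-SCA1+ cells. Its excess in PDGFRα+SCA1+ cells over DC was 1.75 ± 0.48 (adjusted p = 0.0193, up to 0.0723 with single libraries left out). Cfb, the factor B gene, was low in all and highest in DC at 7.59, 6.28 and 7.09, against at most 3.84 in the other populations. Cfd, the factor D gene, was listed at 0 in all 12 libraries, where 3 reads would amount to between 0.438 and 0.607. Cfp, which encodes properdin, ranged from 0.0825 to 45 with no call in any homeostasis comparison.

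C7 stood apart within the terminal pathway. C7 (chromosome 15, 4988762 to 5063740), one of the proteins of the lytic pore, was at 2210, 2023 and 940 in PDGFRα+SCA1+ cells and at 602, 1050 and 206 in PDGFRα+SCA1- cells. It was at 9.21, 0.344 and 14 in PDGFRα-SCA1+ cells and at 0.949, 0.138 and 2.01 in DC. The PDGFRα+ populations overlapped with each other and with no other population. C7 had the largest change of any member, with PDGFRα+SCA1+ cells above DC by 9.74 ± 0.84 on the log2 scale (limma, adjusted p = 4.37e-06). None of the other 6 terminal pathway genes was called between PDGFRα+ cells and DC. C6, C8a, C8b, C8g, C9 and Hc, the C5 gene, had their highest level among the PDGFRα+SCA1+ libraries in mouse E, at 10.3, 1.68, 4.78, 11.8, 13.7 and 3.57. The same held among the PDGFRα-SCA1+ libraries, at 19.3, 22.1, 26.3, 78.9, 66 and 5.03. Of all members above 0, 19 of 31 were highest in the PDGFRα+SCA1+ library of mouse E. In PDGFRα-SCA1+ cells 15 of 32 were highest in mouse E. The share of all genes that were highest in these libraries was not computed, so these counts have no background to be read against. The mouse E libraries are those with the most Alb in these populations, and the part of hepatocyte RNA in the 6 terminal genes was not tested. C8b was higher in PDGFRα-SCA1+ cells (5.47, 26.3 and 6.39) than in DC (2.24, 0 and 1.41) with an adjusted p of 0.0408 in limma, which was 0.0512 with the mouse as a block.

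The 250 bases before the RefSeq start of C3, C7, C8a and Hc are shown because these genes took 3 courses in the cultures described below, which were a rise in SCA1+Msc cells and EM organoids but a slight fall in co-cultured organoids (C3), a fall of a gene high in mesenchyme (C7), and a fall to 0 (C8a and Hc). Sequences are RefSeq windows on GRCm38.p6, printed 5′ to 3′ on the strand of the gene (minus in all 4 cases), at chr17:57228137-57228386, chr15:5063774-5064023, chr4:104876399-104876648 and chr2:35061413-35061662. Promoter entries existed for 25 of the 33 members, and only members that held a match are shown. Capitals mark matches on either strand to TTGCNNAA (CEBP type), GTTAATNA (HNF1 type) and TTCNNNGAA (GAS type, bound by STAT factors), and no marked matches overlap.
C3: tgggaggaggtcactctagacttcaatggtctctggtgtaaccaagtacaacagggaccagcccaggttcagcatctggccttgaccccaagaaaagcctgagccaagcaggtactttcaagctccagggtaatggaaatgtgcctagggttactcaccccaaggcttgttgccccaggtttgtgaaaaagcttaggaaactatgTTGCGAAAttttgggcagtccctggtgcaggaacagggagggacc
C7: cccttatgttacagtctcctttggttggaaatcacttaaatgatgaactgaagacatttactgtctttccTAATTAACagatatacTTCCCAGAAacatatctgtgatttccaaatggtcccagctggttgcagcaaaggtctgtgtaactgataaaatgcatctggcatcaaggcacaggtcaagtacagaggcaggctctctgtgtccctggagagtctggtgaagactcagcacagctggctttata
C8a: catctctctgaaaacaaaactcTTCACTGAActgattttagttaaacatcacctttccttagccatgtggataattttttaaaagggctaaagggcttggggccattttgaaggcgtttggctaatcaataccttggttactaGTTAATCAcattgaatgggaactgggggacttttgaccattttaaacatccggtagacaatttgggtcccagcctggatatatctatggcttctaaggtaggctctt
Hc: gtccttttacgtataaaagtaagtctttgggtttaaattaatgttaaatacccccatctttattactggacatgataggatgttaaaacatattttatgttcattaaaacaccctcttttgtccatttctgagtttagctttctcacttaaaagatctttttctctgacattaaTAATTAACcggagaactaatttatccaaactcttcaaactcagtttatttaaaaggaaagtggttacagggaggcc

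The CEBP-type match of C3 lay 45 to 38 bases before the start. C7 held an HNF1-type match at 180 to 173 and a GAS-type match at 164 to 156 bases before it. C8a held a GAS-type match at 228 to 220 and an HNF1-type match at 107 to 100, and Hc an HNF1-type match at 76 to 69. Of the windows of 250 bases before the start of all 32851 promoters, TTGCNNAA was held by 9.56%, GTTAATNA by 2.33% and TTCNNNGAA by 7.02%. Among the members with an entry, C1rl, C1s1, C3, C5ar2 and C9 had the first, C7, C8a, Cfp and Hc the second, and C7, C8a and Masp2 the third. A match is a string of letters in this window and not evidence of binding.

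Of the regulators, Clu and Cfi were highest in DC and lower in both PDGFRα+ populations, while neither of the 2 receptors tested was called between those populations and DC. Clu (chromosome 14, 65968483 to 65981547) encodes clusterin, a soluble inhibitor of pore assembly, and was at 44636, 40371 and 28808 in DC. It was at 360, 578 and 279 in PDGFRα+SCA1- cells, 211, 209 and 198 in PDGFRα+SCA1+ cells and 851, 2349 and 1045 in PDGFRα-SCA1+ cells. The DC values exceeded all others many-fold, and PDGFRα+SCA1+ cells were lower than DC with a log2 fold change of -7.50 ± 0.36 (limma, adjusted p = 4.23e-08). The summed level of 6 ductal genes was 79.3, 3784 and 327 in the PDGFRα-SCA1+ libraries, highest in the library with most Clu, and the part of ductal RNA there was not tested. Cfi, the factor I protease that degrades C3b and C4b, was at 87.2, 80.9 and 83.1 in DC, 0, 0 and 10.2 in PDGFRα+SCA1- cells, 1.61, 14.1 and 0 in PDGFRα+SCA1+ cells and 7.9, 12.5 and 8.26 in PDGFRα-SCA1+ cells. Cfi fell below DC in both PDGFRα+ populations, with log2 fold changes of -5.24 ± 1.03 and -4.64 ± 1.03 (adjusted p = 0.00227 and 0.00554, the SCA1- population first). Vtn, which encodes vitronectin, another inhibitor of pore assembly, was at 436, 322 and 506 in DC, 58.5, 238 and 211 in PDGFRα+SCA1- cells, 51.9, 102 and 74.7 in PDGFRα+SCA1+ cells and 74.8, 89.5 and 25.2 in PDGFRα-SCA1+ cells.

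Both membrane inhibitors were highest in PDGFRα-SCA1+ cells. Cd55, which speeds the decay of the C3-cleaving enzymes, was at 486, 236 and 182 there, at 23.1, 24 and 10.5 in PDGFRα+SCA1+ cells, 25.1, 12.7 and 25.8 in PDGFRα+SCA1- cells and 1.39, 0.884 and 1.11 in DC. Cd59a, which blocks insertion of C9, was at 803, 990 and 665 in PDGFRα-SCA1+ cells, 30.5, 31.2 and 35.4 in PDGFRα+SCA1+ cells, 28, 122 and 42.5 in PDGFRα+SCA1- cells and 49.3, 64.2 and 43.3 in DC. PDGFRα-SCA1+ cells exceeded PDGFRα+SCA1+ cells by 3.85 ± 0.47 for Cd55 (limma, adjusted p = 0.000113) and by 4.60 ± 0.43 for Cd59a (adjusted p = 1.52e-05). C5ar2, the second C5a receptor, was at 46, 33.3 and 31.8 in PDGFRα-SCA1+ cells and at most 2.21 in the other populations (adjusted p = 4.15e-05 against DC). Kdr, an endothelial receptor, was at 443, 423 and 332 in the same PDGFRα-SCA1+ libraries, and the part of endothelial RNA in these 3 genes was not tested. C5ar1 reached 12.2 in 1 PDGFRα+SCA1- library and was under 10 in the rest, and C3ar1 was under 1 in all 12.

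**Figure D2:**
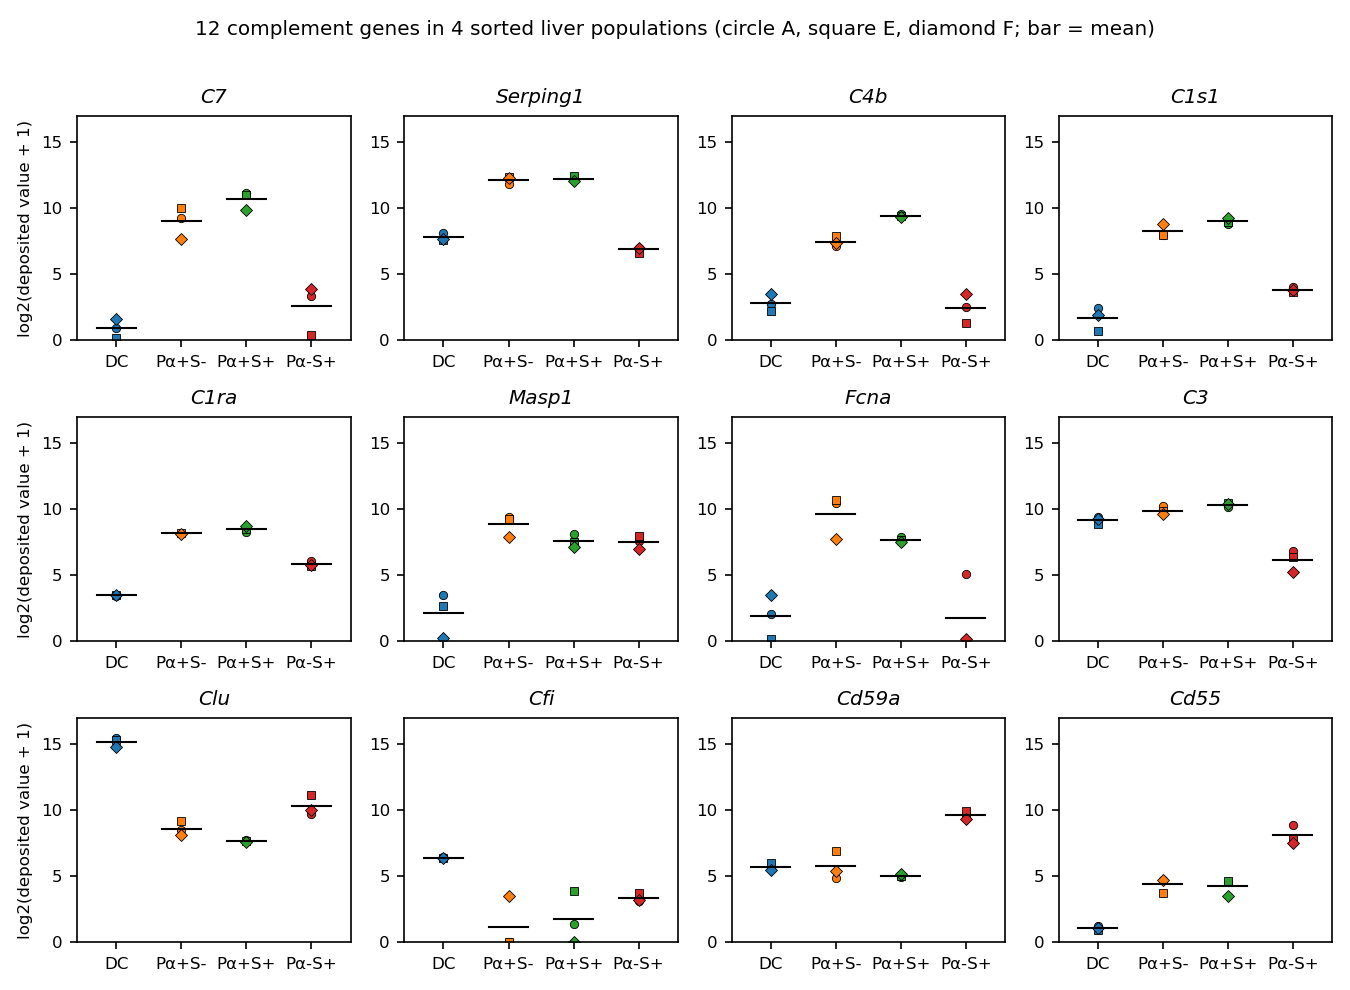
Levels of 12 complement genes in the 4 populations of homeostasis (x axis, Pα for PDGFRα and S for SCA1), as log2 of the deposited value plus 1 (y axis), with 1 point per mouse and a bar at the mean. C7, C4b, C1s1 and Serping1 are high in both PDGFRα+ populations, Clu and Cfi in DC, and Cd55 and Cd59a in PDGFRα-SCA1+ cells.

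Over the members as a whole, PDGFRα+SCA1+ cells were higher than DC in 10 and lower in 3 of the 30 members tested, where 9.85% of the 17028 genes tested were higher and 14% lower. The median log2 fold change was 0.81 over these members and -0.28 over all genes. The members that rose were C7, C1s1, C4b, Fcna, Masp1, C1ra, Serping1, Cd55, C2 and C3, and those that fell were Clu, Cfi and Vtn. PDGFRα+SCA1- cells were higher than DC in 8 members and lower in 3, against 9.98% and 18.9% of all genes, with medians of 0.18 and -0.47. Quantile normalization moved that all-gene median to -0.13 and the share of all calls that were higher from 34.6% to 46.1%. The 8 were C7, Fcna, Masp1, C1s1, C1ra, C4b, Serping1 and Cd55. Of the 3 that fell, Clu, Cfi and Cfb, the call of Cfb (adjusted p = 0.0482) was lost with the mouse as a block (adjusted p = 0.0673). PDGFRα-SCA1+ cells were higher than DC in 7 members (Cd55, Masp1, C5ar2, Cd59a, C8b, C1ra and C1s1) and lower in 6 (Clu, C3, Vtn, Cfb, C2 and Serping1), against 11.5% and 11.3% of all genes, with medians of 1.32 and -0.04. These 3 comparisons share the DC libraries.

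The PDGFRα-SCA1+ and PDGFRα+SCA1+ populations differed in many members although both carry SCA1. Relative to PDGFRα+SCA1+ cells, 8 members were lower and 6 higher in PDGFRα-SCA1+ cells, against 7.86% and 10.9% of all genes, with medians of 0.22 over the members and 0.25 over all genes. The share of all calls that were higher was 58.1% and became 45.7% after quantile normalization. The 8 were C7 (log2 fold change -8.10 ± 0.84, limma adjusted p = 3.12e-05), C4b (-6.97 ± 0.50, adjusted p = 2.14e-06), Fcna, Serping1, C1s1, C3, C2 and C1ra. Without the libraries of mouse E the adjusted p of Fcna rose from 0.00564 to 0.0721. The 6 were C5ar2, Cd59a, Mbl1, Cd55, Clu and C8b. C8b had an adjusted p of 0.0384, which became 0.129 without the PDGFRα-SCA1+ library of mouse E.

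No member was called between the mesenchymal populations with and without SCA1. PDGFRα+SCA1+ against PDGFRα+SCA1- cells gave 0 calls in either direction in limma, against 0.435% of all genes higher and 0.153% lower, and 3 members and 1985 genes had an unadjusted p under 0.05. The medians were 0.54 over the members and 0.15 over all genes. The 3 libraries of each population did not overlap for 7 of the 30 members, with C1qc, C1ra, C1rl, C1s1, C2 and C4b higher and Clu lower in PDGFRα+SCA1+ cells, against 8.82% of all genes that were higher and 5.66% that were lower without overlap. For C1ra and C1s1 the gap was smaller than the factor by which these values can differ from TPM. Intervals were wide. C4b differed by 1.95 (95% interval 0.87 to 3.04, adjusted p = 0.132). C7 differed by 1.67 (-0.16 to 3.49, adjusted p = 0.479), Fcna by -1.94 (-4.70 to 0.81) and Serping1 by 0.07 (-0.43 to 0.56). A difference of several-fold in C7 or Fcna would therefore not have been detectable here, while for Serping1 the interval is narrow.

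At day 0 of the transwell experiment most members tested were higher in SCA1+Msc cells than in DC. Of 31 members tested, 22 were called higher and 1, Clu, was lower, against 21.4% and 24.7% of 18136 genes, with medians of 2.67 and -0.07. The members that moved included those of homeostasis mesenchyme. C7 was at 947 and 1154 in the 2 SCA1+Msc samples and at 2.32 and 4.84 in DC. C1s1 was at 506 and 444 against 8.5 and 6.9, C1ra at 402 and 388 against 14.5 and 13.3, Serping1 at 3752 and 3630 against 193 and 227, and C4b at 493 and 427 against 13.9 and 11.5. Fcna was at 395 and 242 against 4.99 and 13.1, and Masp1 at 199 and 174 against 11.6 and 11.1. No groups overlapped for these 7 genes, and 29.4% of all genes were higher without overlap in this comparison of 2 samples with 2. The log2 fold change was 7.89 ± 0.42 for C7 (limma, adjusted p = 8.01e-07) and 5.78 ± 0.25 for C1s1 (adjusted p = 2.16e-07). C3 was nearly even, at 1456 and 1472 against 1212 and 1142, and its call (adjusted p = 0.0171) was lost after quantile normalization (adjusted p = 0.987). All 7 terminal pathway genes and all 5 lectin pathway genes were higher in SCA1+Msc cells. In homeostasis 5 of the 7 terminal genes (C6, C8a, C8g, C9 and Hc) had been called in no comparison, and whether the experiments differ in these genes was not tested.

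Many of these are genes that hepatocytes express, and the hepatocyte list was also higher in SCA1+Msc day 0. C8a was at 68.4 and 46.9 in SCA1+Msc day 0 and at 3.29 and 1.93 in DC day 0. C8b was at 87.3 and 56.2 against 1.87 and 3.01, C8g at 200 and 266 against 18 and 14.7, C9 at 67.5 and 42.1 against 2.27 and 1.13, and Hc at 27.1 and 11.3 against 0.334 and 0.791. Mbl1 was at 40.8 and 71.7 against 4.41 and 10.4, Mbl2 at 160 and 125 against 23 and 26.4, and Masp2 at 36.7 and 13.3 against 1.86 and 2.37. The SCA1+Msc mean was 5.77 times (Mbl2) to 34.1 times (Hc) the DC mean for these 8 genes. For the 12 hepatocyte genes it was 2.92 times (Alb) to 33.8 times (Cyp2e1), a range that held 7 of the 8, with Hc just above it. C7 at 294 times, C6 at 80.8 times and C1s1 at 61.7 times lay above that range, C4b at 36.3 and Fcna at 35.2 times just above it, and C1ra, Serping1 and Masp1, at 28.3, 17.6 and 16.5 times, within it. The hepatocyte genes thus did not keep 1 ratio between these groups, and the shares that follow depend on which of them are used. At the lowest ratio of a gene to the summed hepatocyte genes among the fresh samples of its experiment, the part of its level that would go with the hepatocyte genes was up to 84.8% for Mbl2, 6.56% for C1s1 and 1.52% for C7 in SCA1+Msc day 0. These shares became 50.1%, 4.14% and 0.972% with Alb alone, and 100%, 17.4% and 3.27% with Apoa1, Apoa2 and Apoc3. That 100% is set by the method, because a SCA1+Msc day 0 sample itself held the lowest Mbl2 ratio. Other genes high in mesenchyme had larger shares than C1s1 and C7 in SCA1+Msc day 0. For Serping1 and Masp1 they were up to 29.1% and 26.8% with the list, and 18.4% and 16.9% with Alb alone. With the 3 apolipoprotein genes they were up to 68.7% for Serping1, 71.3% for Masp1, 40.5% for C1ra and 30.1% for C4b. For Clu in DC day 0 the share was up to 0.790% with the list, 1.25% with Alb alone and 0.312% with the 3 apolipoprotein genes. In PDGFRα+SCA1+ cells it was up to 2.12% for C3 and 0.639% for Serping1 with the list, and 1.30% and 0.393% with Alb alone. In homeostasis DC the share was up to 16.05% for C3, 45.8% for Serping1 and 20.3% for Vtn with the list. With Alb alone these were up to 22.5%, 64.3% and 31.95%, and with the 3 apolipoprotein genes up to 2.69%, 10.01% and 2.51%.

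The share of the day 0 level left in cultured SCA1+Msc cells ranged widely over the members, while little was left of the hepatocyte genes. After 15 days alone, the mean level of each of the 12 hepatocyte genes was at most 4.05% of its day 0 mean (Ahsg was the highest), and their summed level was 116 and 154. Of 28 members with a mean of at least 10 at day 0, 10 kept no more than that share, 18 kept more, and 13 kept over 50%. Listed at 0 in both samples of SCA1+Msc alone were Mbl1, Mbl2, Masp2, Hc, C8a, C8b and C9. Low shares were also left of Vtn (1.66%), Fcna (2.35%), C8g (3.92%) and C7 (4.83%, just above the hepatocyte range). At or above their day 0 mean were C1ra (100.2%), C4b (112%), Masp1 (134%), C1s1 (164%), Serping1 (179%), C2 (197%), Cd59a (229%) and C3 (272%), and C6 kept 62.2%. The part of hepatocyte RNA in the members that fell was not tested.

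**Figure D3:**
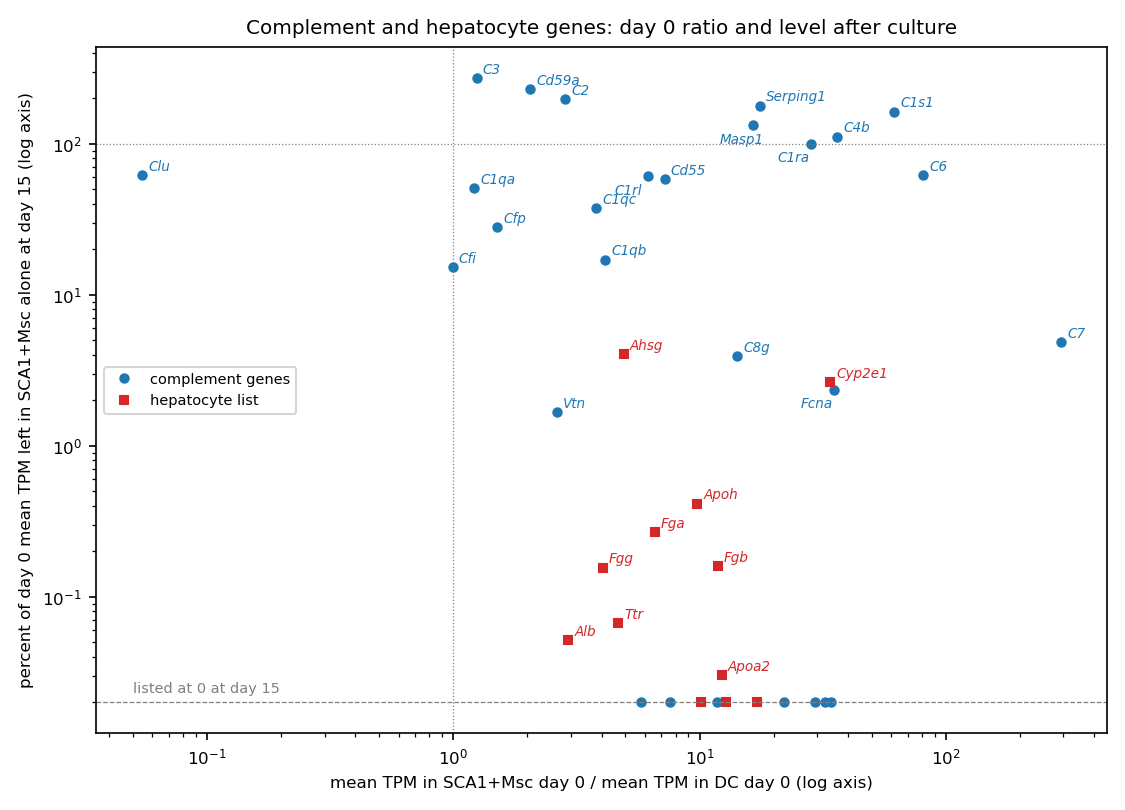
For the complement genes and the hepatocyte genes with a mean of at least 10 in SCA1+Msc day 0, the mean TPM in SCA1+Msc day 0 over that in DC day 0 (x axis, log scale) and the percent of the day 0 mean left in SCA1+Msc alone at day 15 (y axis, log scale, with genes listed at 0 on the dashed line). Hepatocyte genes lie at or below 4.05%, with Mbl1, Mbl2, Masp2, Hc, C8a, C8b and C9 at 0, while C1ra, C1s1, Serping1, C4b, Masp1, C2 and C3 lie at 100% or above.

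By the test, 14 members fell and 7 rose in SCA1+Msc alone relative to day 0, against 17.5% and 27.4% of all genes, with medians of -1.45 over the members and 0.19 over all genes. C7 went from 947 and 1154 to 36.8 and 64.7, a fall by 4.39 ± 0.42 on the log2 scale (limma, adjusted p = 3.68e-05). Cfi went from 66.6 and 77.6 to 10.3 and 11.9 (adjusted p = 3.29e-05), Vtn from 804 and 684 to 12.2 and 12.6 (adjusted p = 0.000172), and Fcna from 395 and 242 to 4.93 and 10.1 (adjusted p = 4.48e-05). C1qb went from 91.5 and 39.9 to 2.4 and 20.1 and Cfp from 14.5 and 9.51 to 0.45 and 6.34, and these 2 calls were lost with single libraries left out (adjusted p up to 0.0822 and 0.237 over the alternatives). The other falls were Mbl1, Mbl2, Masp2, Hc, C8a, C8b, C8g and C9. Upward, C3 went from 1456 and 1472 to 4345 and 3623, a rise by 1.44 ± 0.09 (adjusted p = 2.91e-06). Smaller rises were seen for Cd59a (42.7 and 54.9 to 136 and 87.9), Serping1 (3752 and 3630 to 6854 and 6391), C2 (54.6 and 40 to 91.5 and 94.9), Cfb (6.21 and 3.9 to 9.64 and 14.6), C1s1 (506 and 444 to 808 and 745) and Masp1 (199 and 174 to 250 and 249). No groups overlapped for any of the 7, where 39.1% of all genes were higher without overlap. The summed fibroblast and stellate genes went from 20034 and 20919 to 30720 and 33099 (lower sample first), the macrophage genes from 212 and 244 to 387 and 614, nearly all of it Lyz2 after culture, and the endothelial genes from 399 and 418 to 90.7 and 153. Of the 10 macrophage genes, Clec4f, Timd4 and Ptprc were at 0 in both cultured samples. Timd4 and Marco had been at 0 in both day 0 samples, and Marco was not at 0 in both cultured samples. The part of the fibroblast and stellate, macrophage and endothelial cell types in the rises was not tested. Of the 7 calls, all except C3 lost the call when some single library was left out, and the highest adjusted p over the alternatives lay between 0.0569 (Cd59a) and 0.211 (C2).

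In the ductal lineage, C3, C4b, factor B and factor I rose in organoids grown in EM. Against DC day 0, 4 of the 31 members tested were higher and 16 lower, against 27.1% and 17.2% of all genes, with medians of -1.02 and 0.12. C3 went from 1212 and 1142 to 2914 and 3048, a rise by 1.34 ± 0.09 (limma, adjusted p = 3.84e-06). C4b went from 13.9 and 11.5 to 122 and 146, a rise by 3.30 ± 0.23 (adjusted p = 4.1e-06). Cfi went from 57.4 and 87.7 to 377 and 361, a rise by 2.36 ± 0.25 (adjusted p = 5.46e-05), and Cfb from 11.3 and 7.07 to 26.8 and 31.4, a rise by 1.59 ± 0.30 (adjusted p = 0.00201). Clu stayed at the top of the members, with 36604 and 36012 at day 0 and 44116 and 44125 in EM organoids, without a call. Of the 16 that fell, Vtn went from 242 and 322 to 10 and 0.694 (adjusted p = 0.000126) and Serping1 from 193 and 227 to 84.5 and 64.8, a fall by 1.49 ± 0.24 (adjusted p = 0.000751). C1qa, C1qb, C1qc, Mbl2, Fcna, Masp2, C7, C8a and C8b were listed at 0 in both EM samples, having been between 1.86 and 26.4 at day 0. The other 5 were C1ra, Mbl1, C2, C8g and C9. The summed macrophage genes were 170 to 197 in DC day 0 and 25.0 to 28.5 in EM organoids, with Clec4f and Cd5l at 0 in the latter. Of the hepatocyte genes, Apoa1 was left at 2.65% of its DC day 0 mean and Apoc3 was listed at 0, while Ttr, Fga, Fgb and Fgg were at 164%, 420%, 435% and 117%, so the 12 genes did not move as 1 in the organoids.

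Co-cultured organoids had less of C3, Cfi, Serping1 and C4b than EM organoids and more of Cd55. Relative to EM organoids, 2 members were higher and 5 lower, against 5.73% and 7.21% of all genes, with medians of 0.00 and -0.13. C3 was at 895 and 915 against 2914 and 3048, a log2 fold change of -1.72 ± 0.09 (limma, adjusted p = 5.8e-06). Cfi was at 87.8 and 122 against 377 and 361 (-1.82 ± 0.25, adjusted p = 0.00133), and Serping1 at 11.9 and 22.8 against 84.5 and 64.8 (-2.10 ± 0.24, adjusted p = 0.000485). For all 3 the groups lay far apart. C4b was at 85.3 and 50.2 against 122 and 146 (-1.02 ± 0.23, adjusted p = 0.0168), and C1ra at 6.45 and 4.14 against 8.61 and 8.3 (-0.61 ± 0.17, adjusted p = 0.0445). Cd55 was at 25.6 and 21.4 against 2.98 and 0.807, a rise by 3.19 ± 0.38 (adjusted p = 0.000664). Fcna was at 2.11 and 3.86 and listed at 0 in both EM samples (adjusted p = 0.0379, and 0.0511 with the replicate number as a block). The calls of C4b, C1ra and Fcna were lost with single libraries left out, with adjusted p up to 0.123, 0.341 and 0.206 over the alternatives, while C3, Cfi, Serping1 and Cd55 were called under every alternative. Without the second co-cultured organoid sample the count was 4. Clu was at 25761 and 27001 against 44116 and 44125, a difference of -0.74 (95% interval -1.27 to -0.22) that missed the threshold (adjusted p = 0.0697, and 0.0463 with the replicate number as a block). Cfb was at 27.5 and 27.4 against 26.8 and 31.4, a difference of -0.08 (-0.75 to 0.60). The summed hepatocyte genes were 302 and 512 in co-cultured organoids and 2473 and 2702 in EM organoids (lower sample first), and the summed macrophage genes were 90.3 and 96.0 against 25.0 and 28.5. Of the macrophage genes, Adgre1, Clec4f, Cd5l, Vsig4, Marco and Timd4 were at 0 in both kinds of organoids, and the part of either cell type in these differences was not tested. Msln, otherwise a mesothelial marker, was at 4500 and 3879 in the co-cultured organoids against 296 and 326 in the EM organoids.

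**Figure D4:**
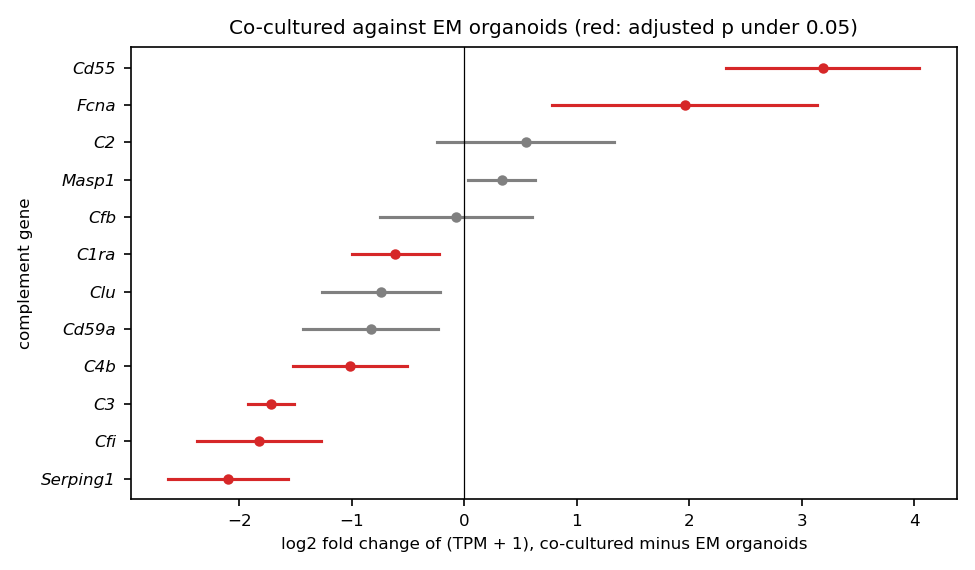
Log2 fold change of TPM plus 1 between co-cultured and EM organoids for the 12 complement genes with a mean of at least 10 in either group or a call (x axis, 95% intervals as bars, red for an adjusted p under 0.05). Cd55 (3.19) and Fcna (1.96) lie above 0, and Serping1 (-2.10), Cfi (-1.82), C3 (-1.72), C4b (-1.02) and C1ra (-0.61) below it.

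Set against DC day 0, which the EM comparison also used, co-cultured organoids were higher in 3 members and lower in 16, against 23.2% and 19.1% of all genes, with medians of -1.24 and 0.00. The 3 were C4b (2.29 ± 0.23, limma adjusted p = 4.17e-05), Cd55 (6.15 and 3.13 at day 0, 2.17 ± 0.38, adjusted p = 0.00144) and Cfb (1.51 ± 0.30, adjusted p = 0.00286). Cfi was not called, at 57.4 and 87.7 before and 87.8 and 122 after. C3 fell slightly, by 0.38 ± 0.09 (adjusted p = 0.00779, lost at 0.107 without the trend in the variance), and Serping1 fell by 3.58 ± 0.24 (adjusted p = 3.79e-06). Thus C3 and Serping1 stood below their day 0 level in co-culture, where in EM C3 had risen and Serping1 had fallen by less.

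No member was called between SCA1+Msc cells below the organoids and those kept alone. In limma 0 members were called in either direction, against 0.0937% of all genes higher and 0.0331% lower, and 3 members and 1263 genes had an unadjusted p under 0.05. The medians were 0.00 over the members and over all genes. C3 was at 4353 and 3883 against 4345 and 3623 (difference 0.05, 95% interval -0.15 to 0.25), and Serping1 at 6406 and 6572 against 6854 and 6391 (-0.03, -0.56 to 0.51). C4b was at 452 and 462 against 564 and 464 (-0.16, -0.67 to 0.34). These intervals exclude a 2-fold change for C3, Serping1 and C4b. Cfb was at 23.5 and 18.3 against 9.64 and 14.6 (0.76, 0.08 to 1.43, adjusted p = 0.664), and Masp1 at 199 and 191 against 250 and 249 (-0.36, -0.65 to -0.06, adjusted p = 0.603). C7 stayed low, at 26.4 and 61.8, and C6 was at 22.1 and 22.5 against 26.8 and 21.4.

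**Figure D5:**
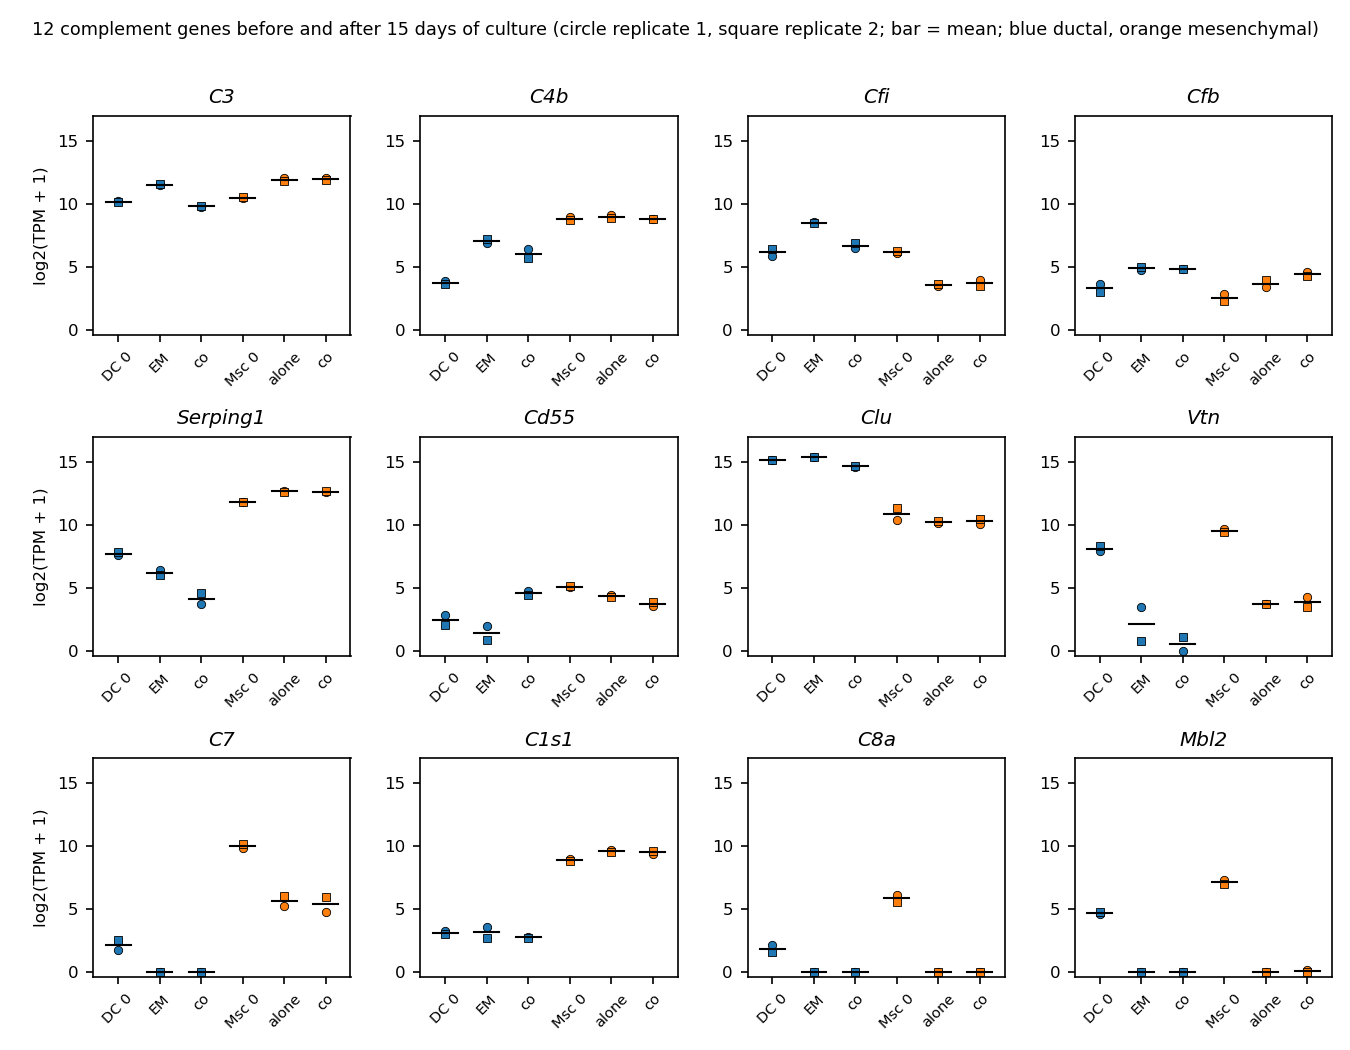
Levels of 12 complement genes in the 6 transwell groups (x axis, DC day 0, EM organoids, co-cultured organoids, SCA1+Msc day 0, alone and co-cultured), as log2 of TPM plus 1 (y axis), with 1 point per sample and a bar at the mean. C3 rises in culture in SCA1+Msc cells and in EM organoids but not in co-cultured organoids, C7 falls in SCA1+Msc cells, and Cd55 is higher in co-cultured than in EM organoids.

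A list of 23 further complement genes, of which 15 were tested in each experiment, was read beside the members. Its calls, higher and lower, were 3 and 3 for PDGFRα+SCA1+ against DC (9.85% and 14% of all genes), 3 and 4 for PDGFRα+SCA1- against DC (9.98% and 18.9%), 3 and 2 for PDGFRα-SCA1+ against DC (11.5% and 11.3%), and 3 and 3 for PDGFRα-SCA1+ against PDGFRα+SCA1+ cells (10.9% and 7.86%). In the transwell experiment they were 8 and 2 for SCA1+Msc against DC at day 0 (21.4% and 24.7% of all genes), 2 and 5 for EM organoids (27.1% and 17.2%) and 2 and 7 for co-cultured organoids (23.2% and 19.1%) against DC day 0. They were 0 and 1 for co-cultured against EM organoids (5.73% and 7.21%), 1 and 5 for SCA1+Msc alone against day 0 (27.4% and 17.5%), and 0 and 0 for SCA1+Msc co-cultured against alone (0.0937% and 0.0331%), where 1 of the 15 had an unadjusted p under 0.05. Colec11, a collectin that starts the lectin pathway, was at 788, 659 and 235 in PDGFRα+SCA1- cells and 536, 411 and 518 in PDGFRα+SCA1+ cells, while the 3 DC libraries listed 0. Colec10, its partner, was at 801, 775 and 314 in PDGFRα+SCA1- cells and 65.7, 79.8 and 53 in PDGFRα+SCA1+ cells, and it was the only gene of the list called between the mesenchymal populations, where the calls were 0 and 1, against 0.435% and 0.153% of all genes. Its log2 fold change was -3.13 ± 0.53 (limma, adjusted p = 0.0273). Colec12, a collectin of the cell surface, was at 187, 317 and 620 and at 379, 523 and 517 in the same populations and at most 9.37 in DC. Cd93, once described as a C1q receptor, was at 300, 398 and 407 in PDGFRα-SCA1+ cells and at most 13.8 in the other homeostasis libraries. C4bp, which encodes the C4b-binding protein, was at 10.2 and 8.19 in DC day 0, 89.7 and 92.9 in EM organoids and 79.8 and 42.4 in co-cultured organoids, and rose by 3.19 ± 0.51 in EM (adjusted p = 0.000729). Susd4, another complement inhibitor, was listed at 0 in DC day 0 and was at 20.2 and 25 in EM organoids. Cpn1, the catalytic subunit of the carboxypeptidase that inactivates C3a and C5a, was at 39 and 31.1 in DC day 0, 34.6 and 26.2 in EM organoids and 5.18 and 2.48 in co-cultured organoids, a fall by 2.75 ± 0.35 from EM (adjusted p = 0.00105).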

How the data were processed

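RNA from sorted or cultured mouse liver cells was made into Smart-seq2 libraries and sequenced, and the submitters' processing notes name STAR 2.5.0a, featureCounts (1.6.0 for the transwell samples) and SAMtools, with GRCm38. Transwell values were RPKM per gene as the authors deposited them, and were scaled here to TPM by each sample's sum. For homeostasis the authors deposited values named TPM. Here the column totals used for scaling were found to repeat down the table, so these values differ from TPM by a factor of 0.722 to 1.39 that depends on gene and sample, and they are treated as another per-length score. Low values in both tables were whole multiples of 1 read for 92.9% (after undoing that reuse) and 93.1% of values (tolerance 0.02 reads), which gave the depths. The limit used for a count of 0 was 3 reads and covers counting error only. Of the homeostasis file, 4 columns of the authors' population means were not used.

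Genes that reached 1 in 3 (homeostasis) or 2 (transwell) samples or more were tested on log2(value + 1) in limma 3.58.1 (R 4.3.3), with each experiment's 12 samples in 1 fit by group, a trend in the variance, two-sided tests and Benjamini-Hochberg adjustment over all genes at 0.05. Fold changes on this scale understate changes of low genes. Tables and plots were made with Python 3.11.15, numpy 2.4.6, pandas 2.3.3 and matplotlib 3.10.9. On simulated data with 200 genes changed by 2 on the log2 scale, the fit recovered 24% with 2.04% of calls wrong for PDGFRα+SCA1+ against DC (17028 genes) and 60% with 4% wrong for SCA1+Msc against DC at day 0 (18136 genes). Homeostasis samples of the same letter came from the same mouse. The correlation of same-mouse residuals was 0.00395 to 0.0973, and adding the mouse to the model was an alternative. By the study's methods, transwell SCA1+Msc cells came from a pair of littermates and DC from another pair. The labels do not tie samples to animals, so a replicate number pairs no SCA1+Msc sample with a DC sample.

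All members are accounted for. Levels per sample are given for most members with a group mean of at least 10. Exceptions include, as SCA1+Msc day 0 means, Clu (1983), C6 (38.7), Cd55 (33.5), C1rl (24.6), C1qc (19.1) and C1qa (15.0). Fold changes are given for at most the 10 largest calls per comparison or where an interval is needed. Genes of the further list are given where called with a mean of at least 10. The members, lists and tests were chosen with earlier results of these data known. Alternatives were another pseudocount (0.1), no filter, a filter at 5, quantile normalization, no trend, the replicate block, the reuse of totals undone, RPKM as deposited, only the groups compared and each sample left out. Leaving out both SCA1+ libraries of mouse E, and an index of Apoa1, Apoa2 and Apoc3 in place of the hepatocyte list, were added after seeing the data. Promoter windows came from RefSeq (GRCm38.p6).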

Additional observations from a re-analysis of the deposited data

Results flagged for a closer look

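The change from day 0 to day 15 was compared between the lineages by an interaction in limma (log2 scale, Benjamini-Hochberg adjusted over all genes tested), and each difference below is organoids minus SCA1+Msc cells. With EM organoids against SCA1+Msc alone, 15 of 31 members differed, against 26.8% of the 18136 genes tested. The difference was 4.96 ± 0.35 (SE) for Cfi (adjusted p = 1.79e-05), -2.33 ± 0.34 for Serping1 (adjusted p = 0.00107), -2.06 ± 0.49 for C2 (adjusted p = 0.0138) and 3.15 ± 0.32 for C4b (adjusted p = 0.000159). Cfi rose from 57.4 and 87.7 to 377 and 361 in EM organoids and fell from 66.6 and 77.6 to 10.3 and 11.9 in SCA1+Msc alone. Serping1 moved the opposite way, falling from 193 and 227 to 84.5 and 64.8 in EM organoids and rising from 3752 and 3630 to 6854 and 6391 in SCA1+Msc alone. C4b rose in EM organoids and was not called in SCA1+Msc alone. The rest were 4.49 for C9, 4.39 for C8b, 4.02 for C8a, 3.59 for Hc, 3.41 for C8g, 3.28 for Mbl1, 2.90 for Masp2, 2.47 for Mbl2, 2.25 for C7, -0.57 for Masp1 and -2.80 for C1qa. C8a, C8b, Hc, Masp2 and Mbl2 ended at 0 in EM organoids and in SCA1+Msc alone, so their difference is that of the day 0 levels. C3 rose in both, with a difference of -0.10 (adjusted p = 0.629). The organoids were grown in EM and the SCA1+Msc cells had first been expanded for 7 days in MM. Medium, earlier culture and lineage therefore cannot be told apart.

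With co-cultured organoids against the SCA1+Msc cells below them, which shared the medium, 18 of 31 members differed, against 28.3% of all genes tested. The SCA1+Msc cells had been expanded for 7 days before the DC were added, so lineage and earlier culture cannot be told apart. C3 (-1.87 ± 0.13, adjusted p = 1.63e-05) fell slightly in the organoids, to 895 and 915, while it stood at 4353 and 3883 in the SCA1+Msc cells after 1456 and 1472 at day 0. Serping1 differed by -4.40 ± 0.34 (adjusted p = 2.75e-05), Cfi by 2.98, Cd55 by 3.57 and C4b by 2.29. The others were 4.58 for Fcna, 4.39 for C8b, 4.36 for C9, 4.02 for C8a, 3.70 for Mbl1, 3.59 for Hc, 2.76 for C8g, 2.52 for C7, 2.38 for Mbl2, 2.34 for Masp2, -1.20 for Cd59a, -1.28 for C1ra and -1.62 for C2. C8a, C8b, C9 and Hc were listed at 0 in both of these groups, so their difference is again that of the day 0 levels. Both sets of differences use the same day 0 samples.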

How the results depend on the processing

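Over the alternatives, 141 member calls were recomputed 1834 times, of which 1663 kept their call and 171 lost it with the same direction, and no direction turned. Of the 141 calls, 106 held under every alternative. Counts of members called stayed within 1.5 times of the reported count except for co-cultured against EM organoids, where 7 members were called and leaving out each sample in turn gave 4 to 6. No filter gave 5 there. With the mouse as a block, the calls of Cfb (PDGFRα+SCA1- against DC, adjusted p = 0.0673) and C8b (PDGFRα-SCA1+ against DC, adjusted p = 0.0512) were lost. Transwell samples share only a number (correlation of same-numbered residuals -0.0188 to 0.0295), and a replicate block on it ended the calls of C1qc (SCA1+Msc against DC at day 0, adjusted p = 0.0545) and Fcna (co-cultured against EM organoids, adjusted p = 0.0511) in limma, brought in Clu there (adjusted p = 0.0463), and left the count at 7. The blocks ended no other member call. The shares that would go with the hepatocyte genes depend on the genes used and set no upper limit. With Alb alone they were up to 1.30% for C3 and 0.393% for Serping1 in PDGFRα+SCA1+ cells, and 1.25% for Clu in DC day 0. In homeostasis DC they were up to 22.5% for C3 and 64.3% for Serping1. In SCA1+Msc day 0 they were up to 0.972% for C7, 4.14% for C1s1 and 50.1% for Mbl2. With Apoa1, Apoa2 and Apoc3, chosen after seeing the data, they were 3.27% for C7, 17.4% for C1s1, 100% for Mbl2 and 0.312% for Clu. The 100% is fixed by the method, as the lowest Mbl2 ratio lay in a SCA1+Msc day 0 sample. For Serping1 and Masp1 in SCA1+Msc day 0 these 3 genes gave up to 68.7% and 71.3%. With the reuse of totals undone, the share of Serping1 in PDGFRα+SCA1+ cells was up to 0.899%. The cause was not tested. With 2 or 3 samples a group, changes may have been missed. The simulated data held only 200 changes of 2 on the log2 scale, fewer than the genes called in these comparisons. Their recovery therefore does not show how well smaller changes, or changes in low genes, would have been detected.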
